A study of Mus musculus with 32 samples.

Results

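The GALNT genes described here encode 10 of the enzymes that start mucin-type O-glycosylation: Galnt1, Galnt2, Galnt3, Galnt4, Galnt6, Galnt7, Galnt10, Galnt11, Galnt13 and Galnt14. They are 10 of the 31053 genes in the count tables. The set was chosen by measured values, the higher Galnt3 and the lower Galnt13 level on induction at day 0, so the day 0 values of these genes are given as a description, without a test. The RNA came from C1, a mouse embryonic stem cell (ESC) line with a β-catenin knockout. C1 carries 2 lentiviral constructs, the EF1a-driven rtTA and a TrE3G-driven gene that joins mCherry and the β-catenin S33Y mutant to a destabilizing domain. Doxycycline (dox) turns on transcription of the fusion gene and trimethoprim (TMP) stabilizes its protein, so dox itself and the fusion protein cannot be told apart in these groups. Every group carried the knockout and both constructs, and no wild-type group was analysed here.

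There were 8 groups of 4 libraries. All cells were kept for 3 passages in 2i/L, the medium with a GSK-3 inhibitor, a MEK inhibitor and LIF, whereas the growth protocol in the labels describes serum with LIF. C1 (day 0) received 10 μM TMP without dox for 48 h. C1M and C1H (day 0) received 10 μM TMP with 100 ng/mL dox for 48 h and were sorted as the middle and the high mCherry fraction. The other groups were collected after 4 days in NDiff227, a serum-free medium without 2i/L. C1T came from C1 cells and had TMP alone throughout. C1MV and C1HV came from C1M and C1H cells from which both inducers were withdrawn (DMSO), and C1MDT and C1HDT came from the same fractions with dox and TMP kept to day 4. The labels call the 4 libraries of a group biological replicates.

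Polypeptide GalNAc-transferases work in the Golgi, where each attaches N-acetylgalactosamine (GalNAc) from UDP-GalNAc to serine or threonine of a passing protein. The sugar is then extended by core enzymes and capped with sialic acid, and the finished chains cover mucins, podocalyxin and the stems of several receptors. Members differ in substrate: some act on bare peptide, whereas Galnt7 and Galnt10 prefer peptide that already carries GalNAc. Close relatives come in pairs, among them Galnt3 with Galnt6, Galnt1 with Galnt13, and Galnt2 with Galnt14.

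The promoters of Galnt3 and Galnt13 are shown because these genes stood at opposite ends of the day 0 comparison. Both genes lie on chromosome 2 of GRCm38, 10.96 megabases apart. Galnt13 (ENSMUSG00000060988) spans 54436317 to 55118309 on the plus strand, and Galnt3 (ENSMUSG00000026994) spans 66082766 to 66124994 on the minus strand. The windows run from 250 bases before to 50 bases after the RefSeq start site (GRCm38.p6), 5′ to 3′ on the strand of the gene, with each match of GGGCGG, a GC box, in capitals. Galnt3 is at chr2:66124744-66125043 (minus strand) and Galnt13 at chr2:54436137-54436436 (plus strand).
Galnt3: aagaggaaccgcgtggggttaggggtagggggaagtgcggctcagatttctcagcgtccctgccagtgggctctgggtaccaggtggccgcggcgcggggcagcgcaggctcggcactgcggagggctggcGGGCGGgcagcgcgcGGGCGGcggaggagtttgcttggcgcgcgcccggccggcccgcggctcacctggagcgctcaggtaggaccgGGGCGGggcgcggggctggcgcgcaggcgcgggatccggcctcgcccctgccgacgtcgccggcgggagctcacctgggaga
Galnt13: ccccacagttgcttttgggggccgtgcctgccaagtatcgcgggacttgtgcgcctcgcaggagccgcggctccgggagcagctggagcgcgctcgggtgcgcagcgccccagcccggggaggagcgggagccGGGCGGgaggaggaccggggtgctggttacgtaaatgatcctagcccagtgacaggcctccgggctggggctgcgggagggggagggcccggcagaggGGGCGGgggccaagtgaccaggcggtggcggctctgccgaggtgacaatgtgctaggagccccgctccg
The Galnt3 window was 76.7% G and C and held 41 CpG dinucleotides, and the Galnt13 window was 73.0% G and C and held 28, against medians of 52.7% and 7 over all 32851 RefSeq windows of the same length. GGGCGG on either strand was found 3 times in the Galnt3 window and 2 times in the Galnt13 window, and at least once in 35.7% of all windows. The letters CTTTGAT, a form of the TCF/LEF motif, were in neither on either strand and in 3.73% of all windows. Of the 10 members, 7 had an entry, with 9 windows between them, and 0 of these 9 held CTTTGAT. A second form, CTTTGTT, was in 1 of the 9, a window of Galnt6, and in 5.85% of all windows. Galnt1, Galnt2 and Galnt4 had no entry.

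Gene counts summed to 1366951 to 3648787 in a library (median 2402468), so that the floor of 3 counts used here was 0.822 to 2.19 CPM, the count relative to the gene count total of the library, before scaling. Levels below are CPM scaled by edgeR's TMM factors, as mean ± SD over 4 libraries. They come from tags at the 3′ end and are not divided by length, so levels of different genes are not ranked. Ctnnb1 tags, which cannot separate the fusion from what the knockout allele still transcribes, were 7.81 ± 2.62 in C1, 12.2 ± 3.84 in C1M and 41.1 ± 5.70 in C1H. At day 4 the uninduced and withdrawn groups had 9.74 ± 2.47 (C1T), 9.16 ± 2.57 (C1MV) and 6.21 ± 1.84 (C1HV), and the groups with inducers 29.2 ± 4.29 (C1MDT) and 30.8 ± 3.73 (C1HDT). The summed level of 7 pluripotency markers was 5325 to 5554 CPM in C1, 4004 to 4284 in C1M and 4053 to 4321 in C1H, and 494 to 1440 CPM at day 4. The summed level of 5 endoderm markers (Sox17, Gata4, Gata6, Foxa2 and Sox7) was 3.26 to 11.2 CPM in C1T, with Sox17 and Sox7 at the floor, and 77.4 to 137 CPM in the other day 4 groups. Primed epiblast markers summed to 90.9 to 144 CPM at day 0 and 592 to 1376 CPM at day 4, and neural markers to 35.1 to 47.9 and 172 to 278 CPM. Mesoderm markers summed to 11.9 to 60.2 CPM over all libraries, with T at the floor in every group, trophoblast markers to 1.13 to 13.8 CPM and fibroblast markers to 2.40 to 16.6 CPM.

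At day 0, Galnt3 was near absent without induction and present in every induced library, and Galnt13 showed the opposite. Galnt3, which among other targets glycosylates the hormone FGF23, had 0, 0, 0 and 1 counts in the C1 libraries. It had 13, 17, 9 and 10 counts in C1M and 15, 23, 18 and 18 in C1H, or 4.65 ± 1.40 and 6.82 ± 1.29 CPM. All C1 libraries lay at the floor, so Galnt3 was at least 3.13-fold higher in C1M and at least 4.59-fold higher in C1H. Galnt13, known as a neural relative of Galnt1, had 15, 6, 8 and 11 counts in C1, or 4.78 ± 1.27 CPM. It had 0, 0, 1 and 0 counts in C1M and 0, 0, 2 and 0 in C1H. Galnt13 was thus at least 4.20-fold lower in C1M and at least 4.32-fold lower in C1H. The induced and uninduced libraries did not overlap for either gene, and these 2 differences are the ones that the set was chosen for. In a bulk library, fewer cells that express a gene and less of its RNA per cell cannot be told apart.

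**Figure D1:**
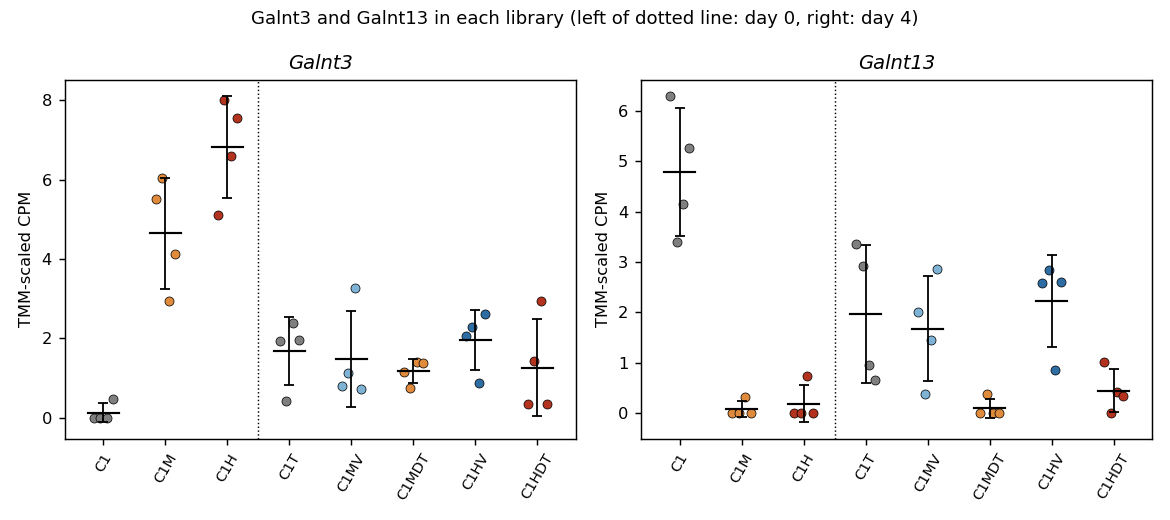
Galnt3 and Galnt13 in each library: the y axis is the level in TMM-scaled CPM, the x axis the 8 groups, points are libraries, and bars are the mean ± SD (n = 4). Galnt3 was highest in C1M and C1H (4.65 and 6.82 CPM) and Galnt13 in C1 (4.78 CPM), and Galnt13 was near 0 in each group that had dox at collection.

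The other members moved less at day 0. Galnt7, a follow-up enzyme that acts on partly glycosylated peptide, was 103, 106, 99.1 and 90.9 CPM in the 4 C1 libraries. It was 133, 121, 143 and 127 CPM in C1M and 126, 134, 120 and 135 CPM in C1H. Every induced library lay above every C1 library, with mean ratios of 1.32 and 1.29. Galnt6, the close relative of Galnt3, was 19.9 ± 3.55 CPM in C1, 26.97 ± 3.82 in C1M and 23.9 ± 3.67 in C1H, with overlap in both comparisons. Galnt1, a broadly expressed enzyme of bare peptide, was 65.5 ± 7.88, 63.5 ± 3.88 and 68.5 ± 3.80 CPM in C1, C1M and C1H. Galnt10, the second follow-up enzyme, was 17.7 ± 4.41, 15.6 ± 0.960 and 14.3 ± 3.60 CPM. Galnt11, which modifies Notch1 among other receptors, was 16.9 ± 3.53, 15.6 ± 2.27 and 20.7 ± 0.550 CPM. Libraries did not overlap for 3 of the 10 members (Galnt3, Galnt7 and Galnt13) in C1M vs C1, where this held for 25.4% of all 15280 tested genes, and for the same 3 in C1H vs C1, where it held for 25.5%. These shares come from the contrast that chose the set.

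Markers of other cell states also differed at day 0. Of 7 pluripotency markers 5 were lower and 1 higher in C1M (edgeR FDR under 0.05), and 4 were lower in C1H, with sums that did not overlap those of C1. Of 4 primed epiblast markers 2 were higher and 1 lower in C1M, and 1 was higher and 1 lower in C1H. Endoderm markers summed to 6.22 to 12.2 CPM in C1, 14.4 to 21.3 in C1M and 14.7 to 18.1 in C1H, with Sox7 at the floor in all 3 groups, and Gata6 was the 1 of 5 called, higher in C1M. Neural markers summed to 41.9 to 47.9 CPM in C1, 35.1 to 46.7 in C1M and 35.1 to 39.7 in C1H, and Sox1 was the 1 of 4 called, lower in C1H. Mesoderm markers summed to 53.2 to 60.2 CPM in C1, 32.3 to 40.01 in C1M and 36.3 to 47.0 in C1H, with T at the floor in all 3 groups. Fibroblast markers summed to 6.71 to 8.61 CPM in C1, 12.8 to 16.6 in C1M and 12.6 to 16.1 in C1H. Of these Thy1 was 0.720 ± 0.212 CPM in C1, at the floor, 9.86 ± 1.96 in C1M and 10.8 ± 0.525 in C1H. Col1a1 went the other way in C1H, where it was called lower than in C1, and it was not called in C1M vs C1. Col1a2 was at the floor in C1 and C1M, and Col3a1 in C1M and C1H. The part of these markers in the day 0 values of the members was not tested.

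Galnt4, Galnt2 and Galnt14 were counted too sparsely for firm statements. Galnt4 had 3, 3, 8 and 8 counts in C1, 24, 4, 15 and 5 in C1M and 14, 10, 15 and 15 in C1H. The Galnt4 gene (chromosome 10, 99108159 to 99113247) lies within the span of Poc1b (99107036 to 99198074) on the same strand, so tags of the 2 genes may be mixed. Poc1b, a centriole gene, was itself 24.9 ± 2.63 CPM in C1, 43.3 ± 2.84 in C1M and 41.7 ± 5.79 in C1H, and the part of its tags in the Galnt4 values was not tested. Galnt2, the other broadly used enzyme of bare peptide, had 9, 5, 5 and 1 counts in C1, 0, 3, 3 and 1 in C1M and 2, 4, 5 and 1 in C1H. Galnt14 had 10 counts in all 32 libraries together, with at most 3 in a library, and did not pass the filter of 1 CPM in 4 libraries. The other 9 members passed it.

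**Figure D2:**
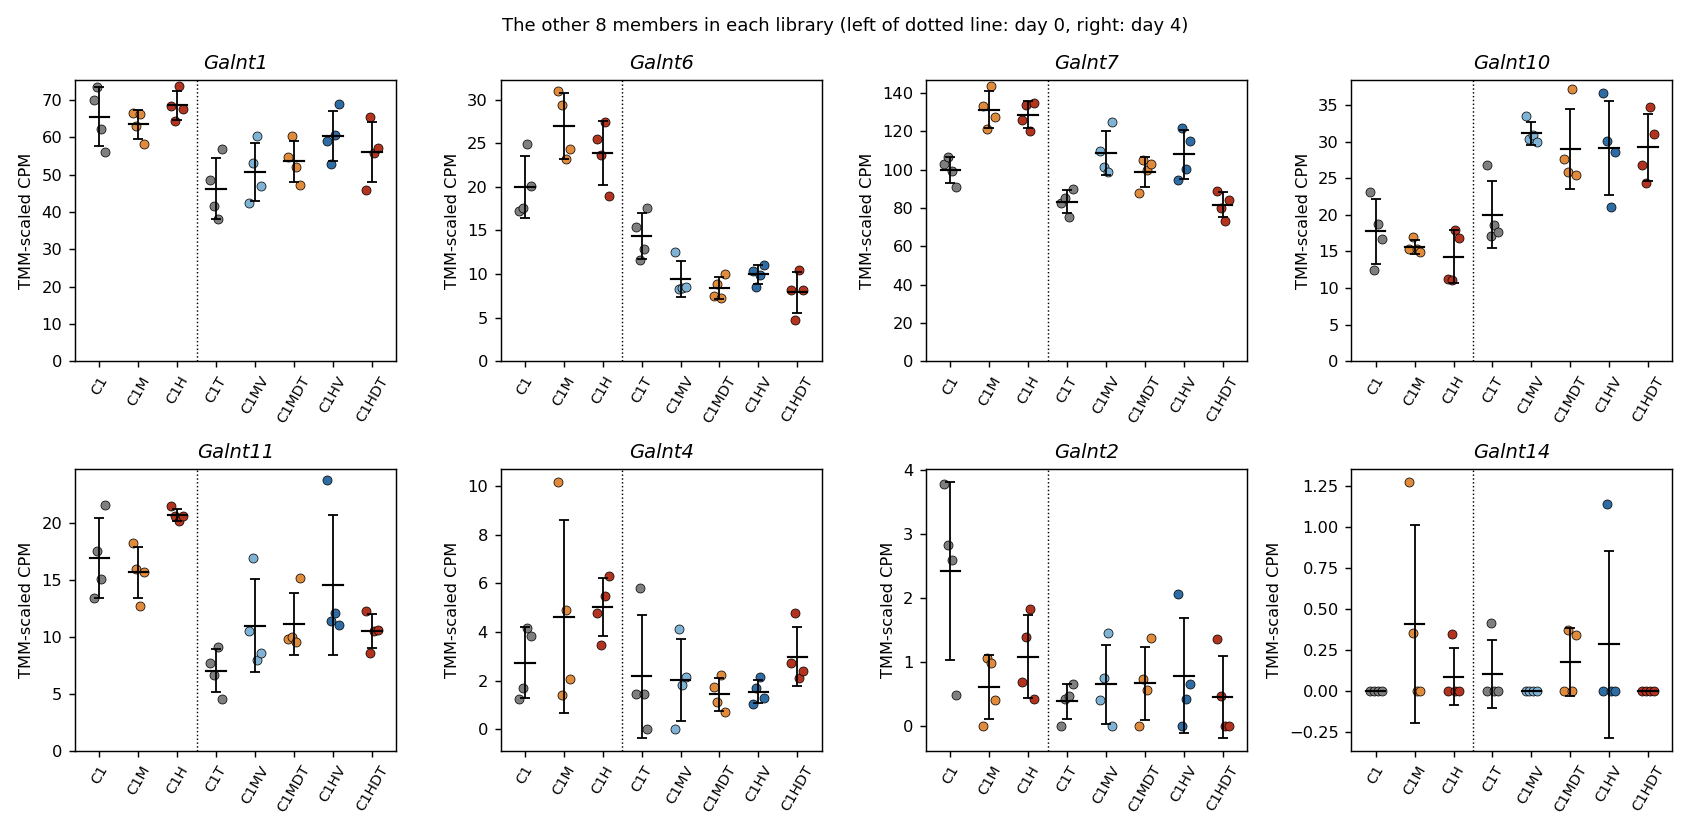
The other 8 members in each library: the y axis is TMM-scaled CPM with its own range in each panel, the x axis the 8 groups, points are libraries, and bars are the mean ± SD (n = 4). Galnt10 was highest in the 4 day 4 groups that had been induced (29.01 to 31.2 CPM), and Galnt6 was lower at day 4 than at day 0.

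The dose of induction was compared between the 2 sorted fractions, over the 8 members other than Galnt3 and Galnt13, of which 7 were tested. With edgeR 0 of them passed an FDR of 0.05 in C1H vs C1M, where 1.77% of all genes did. Galnt11 was 1.32-fold higher in C1H without overlap of the libraries, but was not called (FDR = 0.366). DESeq2 gave no adjusted p to 5 of the 7, Galnt11 among them, and did not call the other 2. The mean of Galnt3 in C1H was 1.47 times that in C1M, with overlap (2.93 to 6.03 against 5.11 to 8.01 CPM). Both fractions lay at the floor for Galnt13.

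By day 4 no difference of Galnt3 with induction was detected, and it was present in all of these libraries at a low level. Galnt3 had 4, 1, 5 and 3 counts in C1T, 2, 3, 9 and 1 in C1MV, 2, 2, 5 and 4 in C1MDT, 4, 4, 2 and 4 in C1HV, and 1, 3, 7 and 1 in C1HDT. The group means were 1.17 to 1.95 CPM and the libraries of all 5 groups overlapped. None of the day 4 comparisons called Galnt3 (edgeR FDR 0.424 to 1). The largest estimate was a log2 fold change of -0.65 ± 0.64 (SE) in C1HDT vs C1HV, so changes of that size were within the error at this depth. Against day 0, the C1M and C1H levels were 3.15- to 5.41-fold those of their day 4 groups, whereas C1T lay at least 1.12-fold above C1. The order of the 8 group means ran from C1H and C1M down to the 5 day 4 groups and then C1. Adjacent groups in it overlapped, except C1M with C1HV, and C1MDT and C1, which were 1 count apart at their closest.

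Galnt13 at day 4 was lower where the inducers were present at collection. The 12 libraries without dox at day 4 (C1T, C1MV and C1HV) had 1 to 7 counts each and 47 in all, with 0 libraries at 0. The 8 libraries with dox (C1MDT and C1HDT) had 6 counts in all, and 4 of them had 0. By group, Galnt13 was 1.97 ± 1.36 CPM in C1T, 1.67 ± 1.04 in C1MV and 2.22 ± 0.915 in C1HV, against 0.0921 ± 0.184 in C1MDT and 0.445 ± 0.424 in C1HDT. Galnt13 was at least 1.67-fold lower in C1MDT than in C1T (edgeR FDR = 0.000741) and at least 1.42-fold lower in C1MDT than in C1MV (FDR = 0.0115). The closest libraries had 1 count each in both comparisons, so whether the groups overlap cannot be read at this depth. In the high fraction it was at least 1.67-fold lower in C1HDT than in C1T (FDR = 0.0338), and its decrease against C1HV, at least 1.88-fold, had an FDR of 0.0555. In both fractions together, a comparison added after these values were seen, the groups that kept the inducers were at least 1.65-fold lower than those that lost them (FDR = 0.000327). Withdrawal against the uninduced control gave no call for C1MV vs C1T (FDR = 0.685) or C1HV vs C1T (FDR = 0.971). The calls rest on few counts. Without C1MDT replicate 3 the FDR for C1MDT vs C1MV was 0.0594. For C1HDT vs C1T it was 0.0639 to 0.142 without any one of C1T replicates 1 and 2 and C1HDT replicates 2, 3 and 4.

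In the same cells Galnt1, the paralog of Galnt13, was not called between kept and withdrawn inducers in either fraction. Galnt1 was 50.7 ± 7.79 CPM in C1MV and 53.6 ± 5.56 in C1MDT (log2 fold change 0.06 ± 0.12, FDR = 0.817). It was 60.3 ± 6.62 CPM in C1HV and 56.0 ± 7.99 in C1HDT (log2 fold change -0.11 ± 0.12, FDR = 0.61). Whether the responses of the 2 genes differ was not tested.

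Of the 10 members, 9 were tested in each day 4 comparison. Against C1T, 2 were called in C1MV (2 higher), 4 in C1MDT (2 higher and 2 lower), 4 in C1HV (4 higher) and 3 in C1HDT (1 higher and 2 lower). Over all tested genes 30.2% were called in C1MV (15.4% higher and 14.9% lower) and 33.4% in C1MDT (16.9% and 16.5%). In C1HV 28% were called (13.7% and 14.3%) and in C1HDT 33.5% (17.4% and 16.1%). In C1HV the 4 higher of 9 members lay above the share of 13.7%. The counts are small, and whether they differ from the shares was not tested. The 4 comparisons share the C1T libraries. The median log2 fold change of the 9 members was 0.16, 0.23, 0.37 and 0.27, against 0.0145, -0.00615, 0.00548 and -0.00425 over all tested genes. Endoderm markers moved with all 4 comparisons (5 of 5 higher in each, sums as given above). In C1MV and C1HV, 5 and 6 of 7 pluripotency markers were higher and 1 was lower, whereas 5 in C1MDT and 4 in C1HDT were lower. Of 4 primed epiblast markers 3, 1, 3 and 2 were lower in C1MV, C1MDT, C1HV and C1HDT, and of 4 neural markers 1, 2, 1 and 3 were higher and 1 was lower in each. In the same order 1, 1, 0 and 1 trophoblast markers were higher, with 1 lower in C1MDT. Of the fibroblast markers 1, 0, 2 and 1 were higher, and 0 mesoderm markers were called. The part of these markers in the results of the members was not tested.

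Galnt10 rose in all 4 induced groups at day 4. Its libraries were 26.9, 17.1, 18.6 and 17.6 CPM in C1T, 33.4, 30.4, 30.9 and 29.9 in C1MV and 27.7, 25.8, 37.1 and 25.4 in C1MDT. They were 36.7, 30.1, 21.1 and 28.6 in C1HV and 26.9, 24.3, 34.8 and 30.97 in C1HDT. Only C1MV lay wholly above C1T, whose replicate 1 was as high as many induced libraries. The log2 fold changes of Galnt10 were 0.64 ± 0.18 (FDR = 0.00299) in C1MV, 0.55 ± 0.18 (FDR = 0.0103) in C1MDT, 0.52 ± 0.19 (FDR = 0.0247) in C1HV and 0.54 ± 0.18 (FDR = 0.0111) in C1HDT. The call was lost for C1MDT without its replicate 3 (FDR = 0.116). It was lost for C1HV without C1T replicate 2 or 3 or C1HV replicate 1 (0.0596 to 0.142), and for C1HDT without C1T replicate 2 or C1HDT replicate 3 (0.0507 and 0.0541).

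Galnt7, the other follow-up enzyme, rose in both withdrawn groups and in C1MDT, and was not called in C1HDT. It was 83.3 ± 6.17 CPM in C1T, 109 ± 11.7 and 108 ± 12.7 in C1MV and C1HV, and 98.8 ± 7.77 and 81.5 ± 6.54 in C1MDT and C1HDT. Both withdrawn groups lay wholly above C1T, with log2 fold changes of 0.37 ± 0.10 in C1MV (FDR = 0.0016) and 0.37 ± 0.10 in C1HV (FDR = 0.0024). In C1MDT the change was 0.26 ± 0.10 (FDR = 0.0317), which was 0.0609 to 0.118 without C1T replicate 1 or 3 or C1MDT replicate 2. In C1HDT it was -0.02 ± 0.10 (FDR = 0.899). Within the high fraction Galnt7 fell by 0.39 ± 0.10 on the log2 scale in C1HDT vs C1HV (FDR = 0.00172), without overlap.

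Galnt6 fell in the groups that kept the inducers. Its C1T libraries were 15.3, 11.7, 12.9 and 17.6 CPM. They were 7.49, 8.84, 7.26 and 9.97 CPM in C1MDT (log2 fold change -0.74 ± 0.23, FDR = 0.00754) and 8.16, 4.77, 10.5 and 8.17 CPM in C1HDT (-0.82 ± 0.24, FDR = 0.00349), all below C1T. The withdrawn groups were also lower by their means, at 9.41 ± 2.06 CPM in C1MV (FDR = 0.051) and 9.95 ± 1.06 CPM in C1HV (FDR = 0.111), and the C1HV libraries also lay wholly below C1T. Whether the kept and withdrawn groups differed was tested directly, and Galnt6 was not called in C1MDT vs C1MV (FDR = 0.738) or C1HDT vs C1HV (FDR = 0.475).

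Galnt11 and Galnt1 rose in C1HV vs C1T. Galnt11 was 7.67, 6.66, 9.05 and 4.57 CPM in C1T and 23.8, 11.4, 12.0 and 11.1 CPM in C1HV (log2 fold change 1.04 ± 0.27, FDR = 0.00119), without overlap. C1HV replicate 1 stood apart, and without it the FDR was 0.0629. In C1MV, C1MDT and C1HDT the means of Galnt11 were 11.0, 11.1 and 10.5 CPM (FDR = 0.0576, 0.0509 and 0.0977). Galnt1 was 46.2 ± 8.22 CPM in C1T and 60.3 ± 6.62 CPM in C1HV (log2 fold change 0.40 ± 0.13, FDR = 0.0125). Without C1T replicate 3 its FDR was 0.0714. Galnt2, Galnt3 and Galnt4 were called in none of the 4 comparisons (FDR 0.426 to 0.99).

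**Figure D3:**
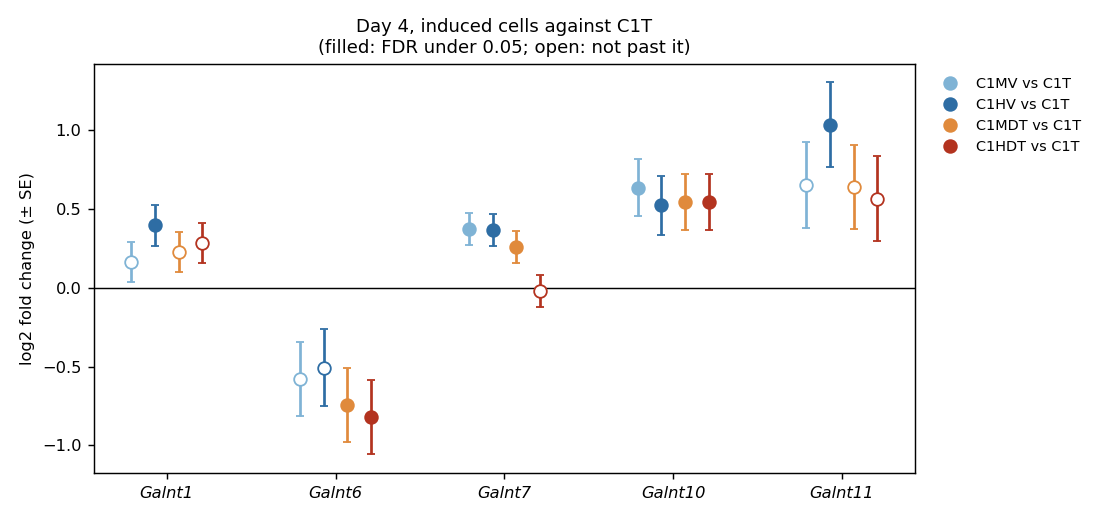
Day 4 fold changes of 5 members against C1T: the y axis is the log2 fold change of the edgeR fit with its SE, the x axis the gene, colours the 4 comparisons, and filled points those with an FDR under 0.05. Galnt10 was between 0.52 and 0.64 in all 4 groups, whereas Galnt7 ran from -0.02 in C1HDT to 0.37 in C1MV. Members with groups at the floor are not drawn.

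Keeping the inducers against withdrawing them changed 1 of the 9 tested members in each fraction. This was Galnt13 in C1MDT vs C1MV, where 12.6% of all genes were called, and Galnt7 in C1HDT vs C1HV, where 15.9% were. Over both fractions together the same 2 genes were called and both were lower with the inducers, at a background of 24.7%. In that pooled comparison Galnt7 was 90.2 CPM with and 108 CPM without inducers, a log2 fold change of -0.25 ± 0.07 (FDR = 0.00244). The other 7 members had FDR values from 0.326 (Galnt11) to 0.882 (Galnt10). The pluripotency markers moved with this comparison too (6 of 7 lower with the inducers and 1, Pou5f1, higher), as did the primed epiblast markers (4 of 4 higher). Endoderm markers (4 of 5 higher), neural markers (2 of 4 higher and 1 lower) and fibroblast markers (1 lower) also moved. The part of all these markers in the pooled results was not tested.

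The 2 fractions did not differ detectably at day 4. In C1HV vs C1MV edgeR called 0 of 9 members and 0.00654% of all genes. In C1HDT vs C1MDT edgeR called 0 of 9 members and 0% of all genes, and Galnt7 had an edgeR FDR of 0.889 there. DESeq2 called 0 in both.

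Day 4 was then compared with day 0 of the same cells, over the 8 members other than Galnt3 and Galnt13. In C1T vs C1, 5 of 7 tested members were called, all lower, where 49.2% of all genes were called (24.4% higher and 24.9% lower). In C1MV vs C1M, 4 were called (1 higher, 3 lower) against 45.8% of all genes (22.0% and 23.8%). In C1MDT vs C1M, 4 were called (1 higher, 3 lower) against 52.4% (24.5% and 27.9%). In C1HV vs C1H, 5 were called (1 higher, 4 lower) against 47.0% (22.0% and 25.1%). In C1HDT vs C1H, 5 were called (1 higher, 4 lower) against 55.7% (26.3% and 29.4%). The median log2 fold change of the 7 members was -0.49, -0.31, -0.40, -0.44 and -0.76 in these comparisons, against 0.01, -0.04, -0.06, -0.06 and -0.06 over all tested genes.

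Galnt6 fell in all 5 comparisons. It fell by 0.49 ± 0.21 on the log2 scale in C1T vs C1 (FDR = 0.0449) and by 1.50 ± 0.21 in C1MV vs C1M (FDR = 1.79e-10). It fell by 1.67 ± 0.20 in C1MDT vs C1M (FDR = 9.23e-13), by 1.27 ± 0.21 in C1HV vs C1H (FDR = 1.69e-07) and by 1.58 ± 0.21 in C1HDT vs C1H (FDR = 2.62e-11). The 4 changes of induced cells came without overlap between day 0 and day 4 libraries. The call for C1T vs C1 was lost without any one of C1 replicates 3 and 4 and C1T replicates 1, 2 and 3 (FDR 0.0546 to 0.201), with DESeq2 (0.0503) and without the filter on low counts (0.0621).

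Galnt10 was the member that rose. It was called only in cells that had been induced, at log2 fold changes of 1.00 ± 0.18 in C1MV vs C1M (FDR = 8.23e-07), 0.91 ± 0.18 in C1MDT vs C1M (FDR = 4.04e-06), 1.03 ± 0.19 in C1HV vs C1H (FDR = 1.4e-06) and 1.05 ± 0.18 in C1HDT vs C1H (FDR = 1.66e-07). None of these 4 pairs of groups overlapped. In C1T vs C1 the change of Galnt10 was 0.16 ± 0.20 (FDR = 0.544). The difference between these changes was not tested, since it contains the day 0 contrast.

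Galnt7 fell in all 5 comparisons by a smaller amount, between 0.26 ± 0.09 in C1HV vs C1H (FDR = 0.0162) and 0.65 ± 0.09 in C1HDT vs C1H (FDR = 6.1e-10) on the log2 scale. Its calls for C1T vs C1, C1MV vs C1M and C1HV vs C1H were lost without single libraries (FDR 0.0558 to 0.111, 0.0596 to 0.0907 and 0.0633 to 0.209). These were C1 replicates 1 and 2 and C1T replicates 1 and 3, then C1M replicate 3 and C1MV replicates 2 and 3, then C1H replicates 1, 2 and 4 and C1HV replicates 1 and 3. Galnt11 fell by 1.23 ± 0.26 in C1T vs C1 (FDR = 1.99e-05) and by 0.97 ± 0.21 in C1HDT vs C1H (FDR = 4.21e-05), without overlap. In C1HV vs C1H its decrease of 0.50 ± 0.21 (FDR = 0.0475) was not called without any one of the 4 C1H libraries or C1HV replicates 2, 3 and 4 (0.0772 to 0.203), with DESeq2 (0.0642) or without the filter (0.0544).

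Galnt1 fell by 0.52 ± 0.13 on the log2 scale in C1T vs C1 (FDR = 0.000262), from 65.5 to 46.2 CPM. It fell by 0.31 ± 0.12 in C1MV vs C1M (FDR = 0.0236) and by 0.30 ± 0.11 in C1HDT vs C1H (FDR = 0.0194). The call for C1MV vs C1M was lost without any one of C1M replicates 1 and 3 and C1MV replicates 1, 2 and 4 (FDR 0.0582 to 0.168). That for C1HDT vs C1H was lost without any one of C1H replicates 1 and 3 and C1HDT replicate 1 (0.0676 to 0.221). Galnt2 had 9, 5, 5 and 1 counts in C1 and 0, 1, 1 and 1 in C1T, at least 1.59-fold lower (FDR = 0.0107, and 0.0539 without C1 replicate 1). Galnt4 fell in C1MDT vs C1M, from 4.64 to 1.44 CPM, by 1.61 on the log2 scale (FDR = 0.00956). Without C1M replicate 1, the highest of its group at 10.2 CPM, the log2 fold change was -0.91 and the call was lost (FDR = 0.191), as it was without C1MDT replicate 4 (-1.32, FDR = 0.0522). It also fell in C1HV vs C1H, from 5.01 to 1.55 CPM (FDR = 0.0153, and 0.0607 without C1HV replicate 1). Poc1b, in whose span Galnt4 lies, was not called in either comparison.

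**Figure D4:**
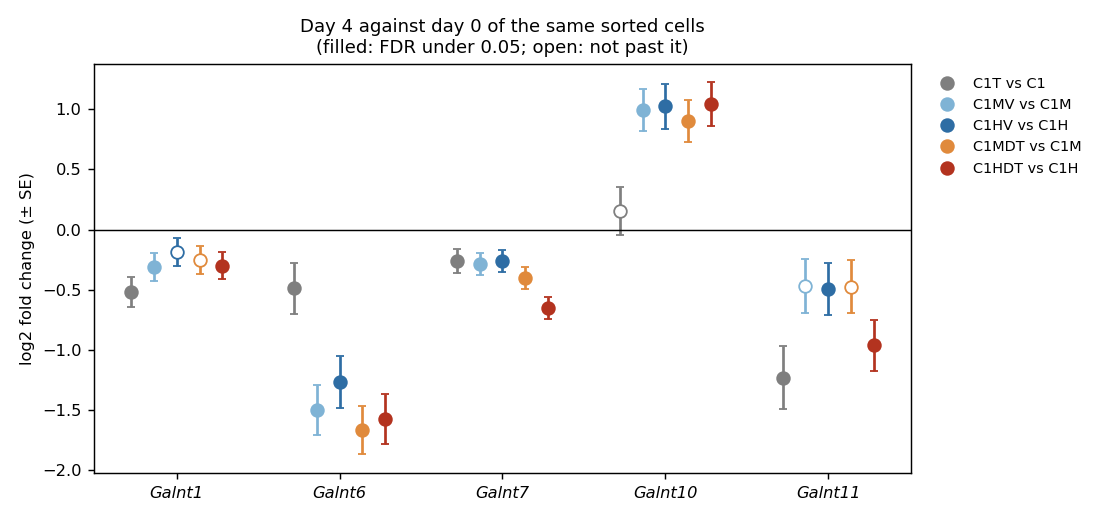
Day 4 against day 0 for 5 members: the y axis is the log2 fold change of the edgeR fit with its SE, the x axis the gene, colours the 5 comparisons, and filled points those with an FDR under 0.05. Galnt6 and Galnt7 lay below 0 in all 5, and Galnt10 lay near 1 in the induced cells and at 0.16 in C1T vs C1.

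Galnt13, given without a test here because its day 0 values chose the set, went in opposite directions by inducer history. It was 4.78 CPM in C1 and 1.97 CPM in C1T, with all C1T libraries below all C1 libraries. It was at the floor in C1M and C1H, and at day 4 the means of C1MV and C1HV were at least 1.47-fold and at least 2.01-fold higher. The closest libraries of C1MV and C1M had 1 count each, and those of C1HV and C1H had 2 each. C1MDT and C1HDT stayed at the floor.

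Of 9 further GalNAc-transferase genes, 4 passed the filter (Galnt9, Galnt12, Galnt16 and Galnt17). Galnt5 had 0 counts in all 32 libraries, which allows no more than 3 counts in each, and Galnt15, Galnt18, Galntl5 and Galntl6 had 1 to 8 counts in all. At day 0 Galnt12, a relative of Galnt4, was 1.07 ± 0.480 CPM in C1, 5.13 ± 1.22 in C1M and 5.58 ± 0.491 in C1H. Galnt16, a relative of Galnt2, was 2.89 ± 1.58, 6.16 ± 1.40 and 6.50 ± 1.30 CPM. At day 4, 1 of the 4 was called in 1 comparison with C1T, Galnt16 in C1HV (6.15 against 1.03 CPM, FDR = 3.13e-05), where 28% to 33.5% of all genes were called in the 4 comparisons. Galnt16 was again lower in C1HDT than in C1HV (2.47 CPM, FDR = 0.0152). With differentiation Galnt9, a neural member, rose in each of the 5 comparisons. It was at least 3.86-fold higher in C1T than in C1, and it rose from 0.925 to 5.78 CPM in C1MV vs C1M. All other calls among the 4 genes were lower, 1 in C1T vs C1 and 2 each in C1MV vs C1M and C1HV vs C1H. In C1MDT vs C1M and C1HDT vs C1H 3 were lower. Over the 5 comparisons 22.0% to 26.3% of all genes were higher and 23.8% to 29.4% lower.

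Of 16 genes of core extension and sialic acid capping, 14 were tested, and B3gnt6 and St6galnac1 were too sparse. Gcnt1, the enzyme that branches core 1 into core 2, was 3.08 ± 0.636 CPM in C1 against 8.72 ± 1.63 in C1M and 9.83 ± 1.50 in C1H. At day 4 it was 5.54 ± 1.84 CPM in C1T, and it rose in C1MV (14.9 CPM, FDR = 1.47e-05), C1MDT (20.1 CPM, FDR = 3.83e-10), C1HV (13.6 CPM, FDR = 9.33e-05) and C1HDT (18.7 CPM, FDR = 5.44e-09). Against C1T, 3, 5, 1 and 5 of the 14 were called in C1MV, C1MDT, C1HV and C1HDT, all higher except B3gnt3 in C1MDT, where 30.2%, 33.4%, 28% and 33.5% of all genes were called. B3gnt3, which extends core 1, was 12.9 ± 4.69 CPM in C1, 26.1 ± 2.48 in C1M and 16.4 ± 2.05 in C1H, and 0.292 to 1.33 CPM in the day 4 groups. It fell in each of the 5 differentiation comparisons, at least 18.8-fold in C1MV vs C1M (FDR = 5.88e-27). Gcnt1 rose in C1MV vs C1M, C1MDT vs C1M and C1HDT vs C1H.

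All 8 genes that supply UDP-GalNAc were tested. Against C1T the same 2 were called in each of the 4 comparisons, both higher, at the same shares of all genes. Gfpt1, the entry enzyme of the hexosamine pathway, was 35.2 ± 9.44 CPM in C1T and 46.1 to 59.0 CPM in the other groups. Uap1l1, a relative of the UDP-sugar pyrophosphorylase Uap1, was 28.6 ± 1.02 CPM in C1T, 96.3 ± 15.4 and 103 ± 9.73 in C1MV and C1HV, and 65.6 ± 8.40 and 69.5 ± 8.27 in C1MDT and C1HDT. Uap1l1 fell by 0.52 ± 0.11 on the log2 scale in C1MDT vs C1MV (FDR = 8.31e-05) and by 0.58 ± 0.11 in C1HDT vs C1HV (FDR = 1.31e-05). In C1T vs C1 it fell by 1.64 ± 0.13 (FDR = 4.66e-24), from 88.7 CPM, and 4 of the 8 genes were lower and 1 higher, where 24.9% and 24.4% of all genes were.

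Of 20 genes of proteins that carry O-glycans, 14 were tested. Podxl, which encodes the sialomucin podocalyxin, was 16.0 ± 3.90 CPM in C1T and rose to 47.5 ± 14.0 and 55.1 ± 4.53 in C1MV and C1HV, and to 71.8 ± 9.47 and 72.5 ± 9.37 in C1MDT and C1HDT (FDR = 1.06e-11 or lower). Podxl had been 2.68 to 3.75 CPM at day 0. Against C1T, 5 of the 14 were higher in C1MV, C1MDT and C1HDT and 6 in C1HV, where 15.4%, 16.9%, 17.4% and 13.7% of all genes were higher. The mucin genes Muc3, Muc4, Muc16 and Muc20, Cd44 and Fgf23 were not tested, with 0 to 32 counts each in all libraries together.

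**Figure D5:**
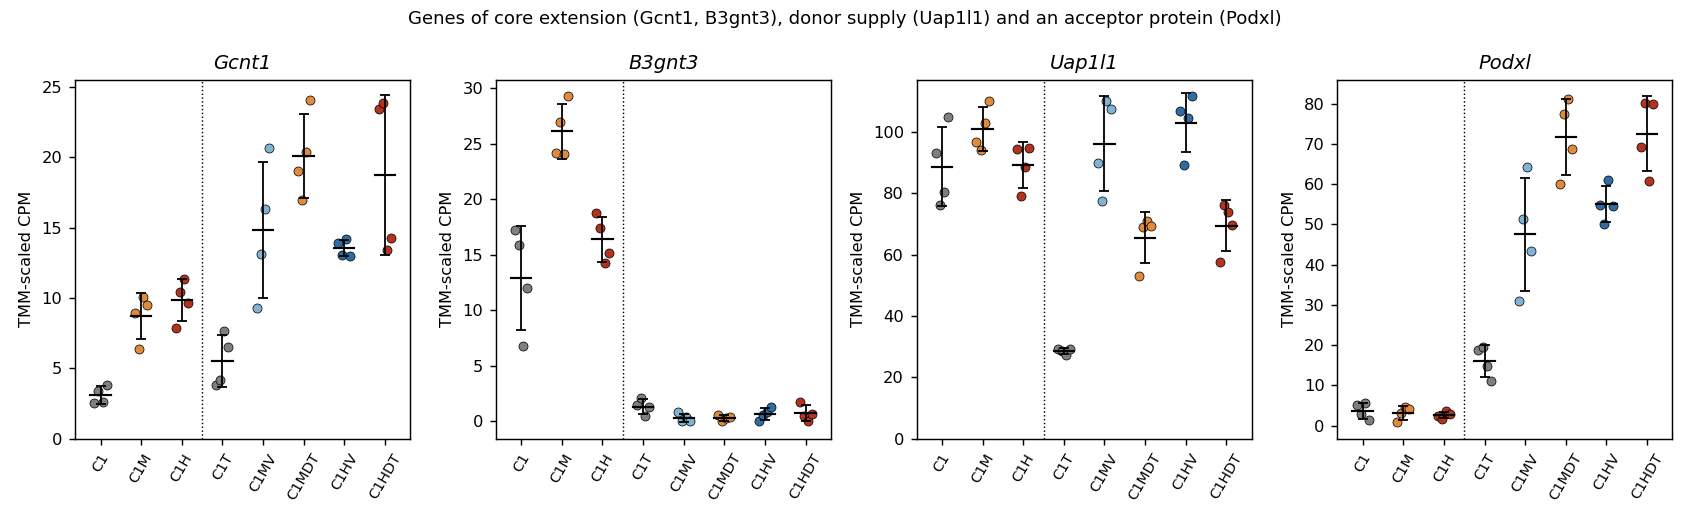
Genes around the GALNT step in each library: the y axis is TMM-scaled CPM with its own range in each panel, the x axis the 8 groups, points are libraries, and bars are the mean ± SD (n = 4). Gcnt1 and Podxl were higher in all induced day 4 groups than in C1T, B3gnt3 averaged at most 1.33 CPM in the day 4 groups, and Uap1l1 was lowest in C1T (28.6 CPM).

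The genes whose levels were most like Galnt3 were sought by Pearson's r of log2 CPM over the 32 libraries, among genes whose log2 CPM averaged 1 or more. Of the first 5, those reported were a gene without a symbol (ENSMUSG00000079808, r = 0.85), Gm10827 (0.81), Tex15 (0.81) and Cntln (0.81). For Galnt13 they were Sept1 (0.86), Dse (0.86), Dusp27 (0.85), Caprin1 (0.82) and Phf3 (0.82). All 32 points share the group structure and the same depth, and Galnt3 and Galnt13 had few counts in most of them. With a prior count of 0.5 in place of 2, the lists kept 3 and 4 of their 5 genes.

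The genes next to Galnt3 and Galnt13 were read for comparison. Ttc21b, beside Galnt3, was 3.06 ± 1.04 CPM in C1, 12.1 ± 2.87 in C1M and 11.8 ± 3.20 in C1H. Csrnp3, on the other side, was 6.56 ± 2.43, 9.08 ± 3.11 and 13.8 ± 1.78 CPM. Kcnj3, the neighbour of Galnt13, was at least 2.43-fold higher in C1MDT than in C1MV (FDR = 0.00197), a comparison in which Galnt13 fell. Rprm, on the other side of Galnt13, was not called there. Against C1T, Kcnj3 was called lower in C1MV and both neighbours in C1HV, where Galnt13 was not called. Neither neighbour was called in C1MDT or C1HDT against C1T, where Galnt13 was lower. At day 0 neither was called in C1M or C1H against C1.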

How the data were processed

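Libraries were prepared with the QuantSeq 3′ kit (FWD) and sequenced from 1 end. The authors used bbduk for trimming, STAR for alignment to mm10 and htseq-count for counting, and deposited 1 table per library that holds raw counts of each Ensembl gene. The strand setting is not given in the sources used here, nor was a count divided by gene length. Rows that name no gene held 58.1% to 63.5% of the reads of a library and were left out. Counts set the precision: 3 counts, the floor used, cover counting error only.

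From these counts, TMM-scaled CPM were computed, and groups were compared by the robust quasi-likelihood test of edgeR 4.0.16 (R 4.3.3) in 1 fit of 8 groups over 32 libraries. The test covered 15280 genes that reached 1 CPM in 4 or more libraries, with Benjamini-Hochberg adjustment over all of them and an FDR threshold of 0.05. The SE of a log2 fold change is its size divided by the square root of the F statistic. Log2 CPM for the search of similar genes used a prior count of 2. A group with at most 3 counts in every library was at the floor, and folds against it are lower bounds, the mean of the higher group over the mean floor of the lower. No p is given for a member in the day 0 contrasts with C1, nor for Galnt3 and Galnt13 in any comparison with a day 0 group, because these values chose the set. The members and the gene lists were chosen with earlier results of these data known.

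All 10 members are named, and of the pathway lists at most 3 genes per comparison with the lowest FDR, together with the genes too sparse to test. Outside this rule, and so chosen after their values were seen, are B3gnt3 in C1MDT vs C1T, Gcnt1 in C1MV vs C1M and Galnt9 in C1HDT vs C1H, which were named because the same gene was already described. Some genes that the rule would name are not reported here. Neighbouring genes were read after the values of the members were seen. Alternatives were RLE size factors, library size only, DESeq2 1.42.0, no filter, at least 1 CPM in all libraries, the replicate number as a block, fits restricted to the compared groups, and leaving out each library in turn. The steps were tested on simulated data. Promoter windows are from RefSeq (GRCm38.p6) and gene positions from GENCODE.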

Additional observations from a re-analysis of the deposited data

Results flagged for a closer look

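Of the 65 sets of 4 libraries in which a member was above the floor, 6 held a library far from the other 3, judged by its gap to the nearest divided by the range of the 4. Chance alone flags about 1 in 20 such sets. C1MV replicate 3 was high for Galnt3 (3.27 CPM, gap over range 0.839), and C1MV replicate 1 for Galnt6 (12.5 CPM, 0.927). C1T replicate 1 was high for Galnt10 (26.9 CPM, 0.845). C1MDT replicate 4 was high for Galnt11 (15.1 CPM, 0.919), as was C1HV replicate 1 (23.8 CPM, 0.922). C1HV replicate 3 was low for Galnt13 (0.860 CPM, 0.868).

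Galnt13 moved in opposite directions with differentiation. Every C1T library was below every C1 library (1.97 against 4.78 CPM on average), whereas every C1MV library was above every C1M library (1.67 against 0.0815 CPM) and every C1HV library above every C1H library (2.22 against 0.183 CPM). The closest libraries had 1 count each in C1MV and C1M and 2 each in C1HV and C1H, under the floor of 3 counts. The day 0 values in these contrasts chose the set, so the opposite directions are a description only. The difference was not tested.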

How the results depend on the processing

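Of the 40 pairs of a member and a comparison past the threshold, 40 stayed past it with RLE size factors, 40 with library size only and 37 of the 39 to which DESeq2 gave an adjusted p. Without the filter 38 did, with at least 1 CPM in all libraries 33 of the 33 still tested, and in a fit of only the groups compared 36 of 36, and no direction changed. With each library left out in turn, 22 of 40 stayed past it every time, and the others are named beside their values. Another scaling moved the median change of all genes by at most 0.0788 on the log2 scale.

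The number of members called changed by over 1.5 times as follows, and the cause was not tested unless given. C1MV vs C1T had 4 in place of 2 with at least 1 CPM in all libraries, where fewer genes were tested. C1MDT vs C1MV had 0 in place of 1 with that filter and in the fit of only these groups, both of which leave Galnt13 out, and 0 with DESeq2, which gave it no adjusted p. C1HDT vs C1HV had 2 in place of 1 with library size only and in the fit of only these groups, where Galnt13 was added. The comparison of both fractions together had 1 in place of 2 with at least 1 CPM in all libraries. With 1 library left out, counts ran from 2 to 4 for C1HV vs C1T, 1 to 4 for C1HDT vs C1T, 0 to 1 for C1MDT vs C1MV, 1 to 2 for C1HDT vs C1HV, 3 to 5 for C1T vs C1, 2 to 5 for C1MV vs C1M and 3 to 4 for C1HV vs C1H.

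The lower bound of the Galnt3 fold at day 0 ran from 2.76 to 3.46 in C1M and from 4.23 to 4.89 in C1H over all alternatives, and that of Galnt13 from 3.82 to 4.64 and from 3.92 to 4.76. Replicate numbers recur in the labels. The deviations of same-numbered libraries from the means of their groups had r of -0.00163 on average (-0.0673 to 0.0486), against 0.000545 for differently numbered ones. No shared deviation was detected, and the labels do not say whether same-numbered libraries were prepared together. With the replicate block 40 of the 40 pairs stayed past the threshold, and the count of members called was 5 in place of 4 in C1MDT vs C1T and the same elsewhere. Depth limits Galnt2, Galnt3, Galnt4, Galnt13 and Galnt14, whose counts per library are mostly in single digits.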
